A study of Mus musculus with 6 samples.

Results

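The sites bound by STAT3 in lin-CD34+ EML cells were set against the open chromatin of the same population. The deposited STAT3 list holds 885 peaks and the ATAC list 143365 distinct intervals, of 149791 peaks and distinct intervals in the whole series. A STAT3 peak was counted as open when it shared at least 1 bp with an ATAC interval: 694 peaks did and 191 did not. A gene was counted as having an open promoter when an ATAC interval lay within 1000 bp of its transcription start site (TSS) by the authors' annotation. There were 14107 such genes, of which 379 also had a STAT3 promoter peak within that distance and 13728 did not.

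EML is an established mouse line of blood precursors, of strain B6D2F1 by the labels, which was sorted into lin-CD34+ and lin-CD34- cells. STAT3 and SOX4 were immunoprecipitated and ATAC-seq was done in lin-CD34+ cells, and GABPa was immunoprecipitated in lin-CD34- cells. Each population also had a control library, titled as input with IgG given as its antibody, which was not analysed here. No treatment or genotype separates the groups, all cells come from the same line, and each group is 1 library. Without replicates no test between conditions was possible, so each share carries its exact 95% interval (Clopper-Pearson, for counting error alone), and other values are medians with quartiles. The total depth of each library is unknown. It was visible only through the tags in a peak, the number of reads counted there, which ranged between 11 and 112 over the STAT3 list.

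STAT3 is a transcription factor that waits in the cytoplasm until a cytokine receptor and its JAK kinase phosphorylate it; it then pairs with another STAT, enters the nucleus and binds palindromic sites of the form TTCNNNGAA. In blood it acts downstream of receptors of the interleukin-6 family and of growth factors such as G-CSF, and its textbook targets include its own inhibitor Socs3. ATAC-seq marks open chromatin as the places where a transposase can insert adapters, chiefly active promoters and enhancers.

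Selected promoters with a STAT3 peak are printed here to show where motifs lie in them. The sequences are RefSeq windows of 300 bases on GRCm38.p6, the assembly named mm10, running 5′ to 3′ on the gene's strand from 250 bases before the TSS to 50 after it. Capitals mark 4 motifs on either strand: TTCNNNGAA for STAT factors, CCGGAAG for ETS factors, GCGCATGC for NRF1 and the E-box CACGTG. The first 4 are open promoters whose STAT3 peak is centred in the window and which hold the STAT motif. They were picked for that motif, so they do not stand for all bound promoters. It was in 22 of 290 windows of open genes with STAT3 (7.59%), against 6.87% of those without.
Eif4e (chr3:138527018-138527317, plus strand): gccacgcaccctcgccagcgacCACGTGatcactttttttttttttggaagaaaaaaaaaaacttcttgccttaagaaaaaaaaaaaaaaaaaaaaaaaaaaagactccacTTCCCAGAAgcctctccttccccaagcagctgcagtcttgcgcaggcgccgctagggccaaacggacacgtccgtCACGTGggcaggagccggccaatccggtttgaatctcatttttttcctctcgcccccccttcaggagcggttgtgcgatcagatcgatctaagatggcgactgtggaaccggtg
Nup107 (chr10:117792656-117792955, minus strand): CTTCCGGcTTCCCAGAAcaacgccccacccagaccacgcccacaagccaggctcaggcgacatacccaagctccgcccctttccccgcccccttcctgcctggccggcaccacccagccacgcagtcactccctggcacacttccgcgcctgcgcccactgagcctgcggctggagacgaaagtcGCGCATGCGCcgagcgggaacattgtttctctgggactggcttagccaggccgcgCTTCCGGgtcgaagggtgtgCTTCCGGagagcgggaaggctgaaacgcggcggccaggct
Nfxl1 (chr5:72559596-72559895, minus strand): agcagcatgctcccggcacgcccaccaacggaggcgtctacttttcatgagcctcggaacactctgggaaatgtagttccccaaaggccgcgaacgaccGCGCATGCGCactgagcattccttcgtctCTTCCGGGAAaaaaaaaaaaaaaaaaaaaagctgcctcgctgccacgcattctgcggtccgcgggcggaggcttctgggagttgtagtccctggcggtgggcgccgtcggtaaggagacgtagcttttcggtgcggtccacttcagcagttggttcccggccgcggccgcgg
Surf6 (chr2:26902838-26903137, minus strand): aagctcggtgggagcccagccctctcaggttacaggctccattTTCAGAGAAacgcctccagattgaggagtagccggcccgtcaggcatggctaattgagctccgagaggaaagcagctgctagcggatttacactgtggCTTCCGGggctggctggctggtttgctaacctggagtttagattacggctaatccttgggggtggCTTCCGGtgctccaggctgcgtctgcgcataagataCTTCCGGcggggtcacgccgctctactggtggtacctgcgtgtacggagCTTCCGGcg
Next come the 2 open promoters with the highest STAT3 scores of all, which have no STAT motif in the window.
Copg1 (chr6:87887690-87887989, plus strand): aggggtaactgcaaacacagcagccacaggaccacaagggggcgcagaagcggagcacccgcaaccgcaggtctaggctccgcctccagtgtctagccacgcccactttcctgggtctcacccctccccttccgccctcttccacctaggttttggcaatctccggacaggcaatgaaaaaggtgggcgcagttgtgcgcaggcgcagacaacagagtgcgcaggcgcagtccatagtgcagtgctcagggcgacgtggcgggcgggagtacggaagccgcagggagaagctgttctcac
Nfat5 (chr8:107293220-107293519, plus strand): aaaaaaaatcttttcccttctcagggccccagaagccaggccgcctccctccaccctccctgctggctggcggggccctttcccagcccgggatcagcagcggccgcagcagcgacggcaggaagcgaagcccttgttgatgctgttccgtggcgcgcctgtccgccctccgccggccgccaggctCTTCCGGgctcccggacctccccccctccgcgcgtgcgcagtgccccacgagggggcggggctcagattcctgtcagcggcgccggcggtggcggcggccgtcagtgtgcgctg
The last is the promoter of the neuronal splicing factor gene Nova1, where a STAT3 peak lies at the start site with no ATAC interval.
Nova1 (chr12:46818718-46819017, minus strand): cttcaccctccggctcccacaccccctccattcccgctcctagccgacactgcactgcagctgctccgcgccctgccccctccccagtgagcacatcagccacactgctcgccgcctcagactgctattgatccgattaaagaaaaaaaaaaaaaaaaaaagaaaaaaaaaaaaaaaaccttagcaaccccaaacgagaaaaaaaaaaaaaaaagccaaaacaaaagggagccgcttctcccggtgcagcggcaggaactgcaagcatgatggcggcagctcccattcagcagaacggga

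The STAT motifs of these windows lay at varied distances from the summit, the position of highest tag density in a peak. At Eif4e, the gene of the mRNA cap-binding protein, the STAT motif began at -139 from the TSS and the summit lay at -99, with E-boxes beginning at -228 and -64. At Nup107, a nuclear pore gene, the STAT motif began at -242, directly after an ETS motif at -250, and the summit lay at -187. At Nfxl1 the STAT match began at -121 and shares bases with an ETS match at -122, while the summit lay at -51. At Surf6, a nucleolar protein gene, the STAT motif began at -207, but the summit at -14 lay beside the nearest of 4 ETS motifs, at -8. Ing3 (score 164.09, against 160.01 at Surf6) and Txn2 (136.22) also qualified and are not printed. At Ing3 the STAT motif began at -80 and the summit lay at -46, with no ETS, NRF1 or E-box motif in the window. At Txn2 the STAT motif began at -17 and an ETS motif at -119, while the summit lay at -169. The NRF1 motif of Nup107, at -65, and that of Nfxl1, at -151, read on both strands at overlapping positions. The Nfat5 window held 1 ETS motif at -64, and Copg1 and Nova1 held none of the 4. A match is a description of letters, and its absence says only that these letters are not in the window.

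STAT3 peaks were open at promoters and less often elsewhere, and the share was lower farther from the TSS. Of the 694 open peaks, 401 were promoter peaks, 96.4% of the 416 in the list (94.1 to 98.0), and 293 lay elsewhere, 62.5% of 469 (57.9 to 66.9). Within 100 bp of a TSS 224 of 228 peaks were open (98.2%), between 100 and 250 bp all 100, and between 250 and 500 bp 46 of 47. From 500 to 1000 bp the share was 31 of 41 (75.6%, 59.7 to 87.6), closer to that of peaks outside promoters. Upstream, from 1000 to 5000 bp, 64 of 90 were open (71.1%, 60.6 to 80.2), and over the same distance downstream 49 of 73 (67.1%, 55.1 to 77.7). It was 63.6% (75 of 118) from 5000 to 20000 bp downstream, 56.8% (84 of 148) up to 100000 bp and 52.5% (21 of 40) beyond. The intervals of neighbouring classes past 500 bp overlap. Neither list holds a peak more than 5000 bp upstream of a TSS, so distal upstream sites were not analysed here.

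**Figure D1:**
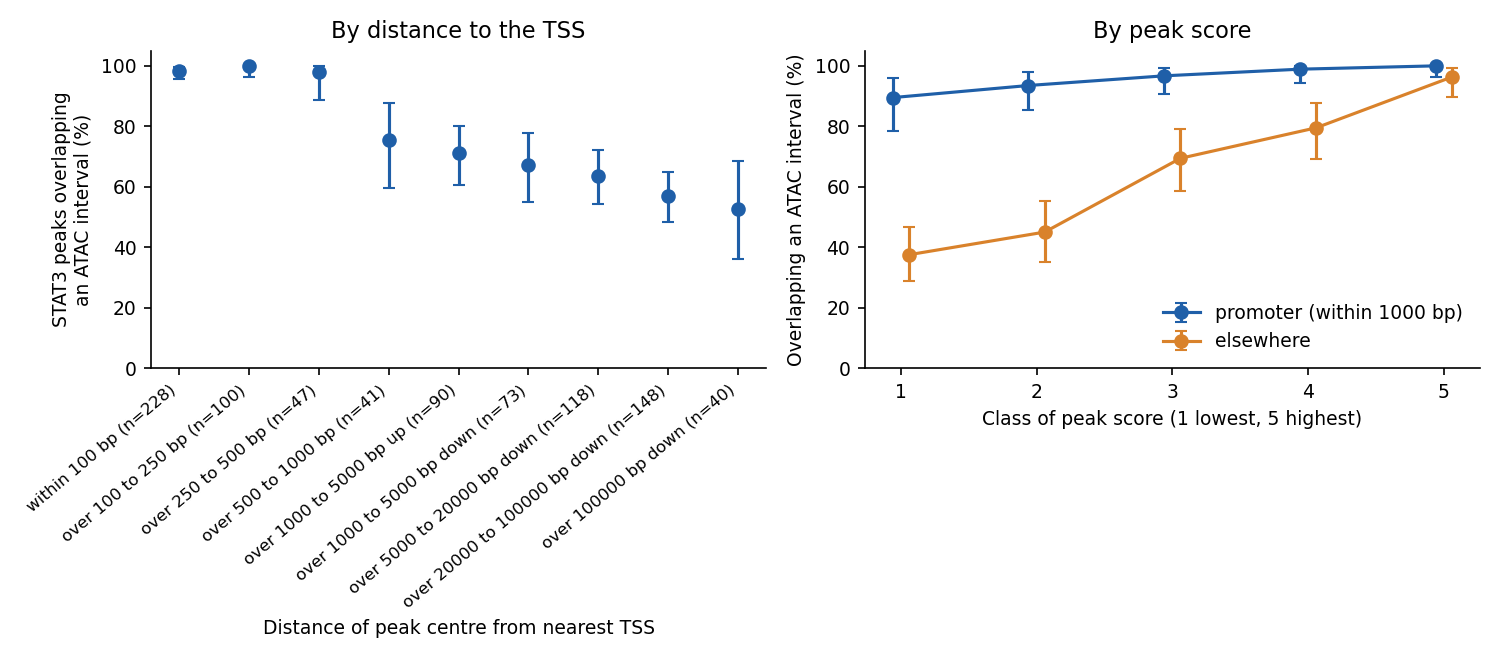
Share of STAT3 peaks that overlap an ATAC interval (y axis, percent) by the distance of the peak from its nearest TSS (left, with the number of peaks) and by 5 classes of peak score (right, promoter peaks above and peaks elsewhere below). Points are shares in 1 library, bars exact 95% intervals for counting error; the share is 98.2% within 100 bp and 52.5% beyond 100000 bp, and in the lowest score class it is 89.5% at promoters and 37.5% elsewhere.

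The score of a peak separated open peaks from those that missed ATAC intervals mainly outside promoters. The score is the authors' value, -10 times the log10 of a p-value. The list was split into 5 score classes of near equal size. At promoters 51 of 57 peaks in the lowest class were open (89.5%, 78.5 to 96.0) and all 96 in the highest. Elsewhere the lowest class, with scores between 70.51 and 76.78, had 45 of 120 open (37.5%, 28.8 to 46.8). The next 3 classes had 45.0%, 69.4% and 79.5%. In the highest class, with scores of 133.18 or more, 78 of 81 were open (96.3%, 89.6 to 99.2), which is close to the promoter share. The 3 that missed in that class were at Commd10, Mospd3 and Sec14l1.

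Open peaks held more tags than peaks outside ATAC intervals, although the caller's fold enrichment was alike. The median was 33 tags in open peaks (quartiles 26 and 42) and 24 in those that missed (21 and 29). Median widths were 330 bp and 260 bp in the same order. The authors' fold over background had medians of 22.3 in open peaks and 22.0 in those that missed. An open peak usually sat well inside its interval: 476 of 694 (68.6%, 65.0 to 72.0) lay wholly within 1 interval, and the summit was a median of 112 bp from the interval's centre. At promoters the median offset was 152 bp, and 298 of 401 open promoter peaks (74.3%, 69.7 to 78.5) were centred upstream of the TSS. Only 11 open peaks touched 2 intervals. They include peaks at Zfp608, at Phf12, a chromatin reader gene, at Apoc1, an apolipoprotein gene, at Acot4, an acyl-CoA thioesterase gene, and at Exosc4, an exosome subunit gene.

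The 10 strongest open promoter peaks were at genes of varied function. Copg1 encodes a subunit of the coatomer coat of Golgi vesicles; its peak of 51 tags (score 216.44) lay entirely in an interval 673 bp wide. Nfat5, the factor of the osmotic stress response, had 57 tags inside 1022 bp. Txnl4b, related to a spliceosome protein, had 81 tags inside 742 bp, and Naa25, of an N-terminal acetyltransferase, 89 tags inside 716 bp. Nat10, which acetylates cytidine in RNA, had 49 tags inside 1139 bp and Sec24c, of the COPII vesicle coat, 70 tags inside 1119 bp. Eif3d, a subunit of translation initiation factor 3, had the most tags of the list, 112, inside 1249 bp. Mrps18b, of the mitochondrial ribosome, had 56 tags and Slfn5 had 70, at 627 bp in intron 1 of 5. Eapp was the one partly covered, with 84.6% of a peak of 55 tags centred at -935 bp.

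Away from promoters the 10 strongest open peaks lay in introns in 5 cases and in LTR repeats in 3, with 1 at a transcript's end and 1 in intergenic sequence. Apol9b, of the apolipoprotein L family, had 109 tags in intron 1 of 2, with 72.6% of the peak in an interval of 309 bp. Near the deacylase gene Sirt7 a peak of 101 tags at a transcription end was 59.5% covered. Nceh1, a cholesterol ester hydrolase gene, had 67 tags in intron 1 of 4, and Cntn1, a neural adhesion molecule gene, 54 tags in intron 1 of 23. Peaks at D17Ertd648e, with 53 tags, at Pdzph1, with 57, and at Nrgn, with 51, lay wholly in intervals of 682, 685 and 746 bp. The Dnah6 peak (51 tags) lay in an ORR1D1 element, that at 1700012I11Rik (56 tags) in an ORR1E element and that at Fbp2 (57 tags) in an RLTR45 element. Reads from repeats and from the Apol9 family can map to more than 1 copy, so the position of these peaks is uncertain.

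Peaks annotated to a repeat were open less often than other peaks outside promoters. Of 123 such peaks 59 were open (48.0%, 38.9 to 57.2), against 234 of 346 peaks without a repeat (67.6%, 62.4 to 72.5). The classes differed among themselves. In LTR elements, the remains of retroviruses, 25 of 40 were open (62.5%, 45.8 to 77.3), including 13 of 16 in the ERVL-MaLR family (81.2%, 54.4 to 96.0) and 7 of 15 in ERVK. In LINE elements 10 of 22 were open. In SINE elements, short repeats copied from small RNAs, 13 of 45 were open (28.9%, 16.4 to 44.3), with 4 of 16 in B2, 3 of 12 in B4 and 2 of 8 in Alu elements. The SINE interval lies below those of LTR elements and of peaks without a repeat. How reads that map to several places were handled is not stated, and its part in these shares was not tested.

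Only 15 promoter peaks missed every ATAC interval, and 10 of them lay more than 500 bp from the TSS. The 4 within 100 bp of a TSS were Nova1, with 25 tags at 73 bp and the nearest interval 35849 bp away, Gm21188 (24 tags, 5060 bp away), Gm29685 (19 tags, 815 bp away) and Rn4.5s. The Rn4.5s peak had 57 tags and the lowest fold of the STAT3 list, 10.49, and 4.5S RNA genes occur in many copies, so its place is uncertain. Tgif1, a homeobox repressor gene, had a peak of 24 tags just 22 bp from an interval, and 4930402F06Rik one of 30 tags at 59 bp. At Rcc2 the peak of 33 tags lay 291 bp from the interval at the gene's own start. Fbxl22, Gjc1, Krt84, Trib2, a pseudokinase gene, Uap1l1, Rprd1a, C030013C21Rik and Gm5532 had between 19 and 34 tags each.

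The 10 strongest peaks that missed ATAC elsewhere held between 26 and 75 tags. Commd10 had 75 tags (score 215.24) in intron 5 of 6, with the nearest interval 5304 bp away. Sec14l1 had 51 tags in a simple repeat, 92 bp from an interval, and Mospd3 38 tags in a 3′ UTR, 3383 bp away. Chd2, a chromatin remodeller gene, had 36 tags, Btbd9 32, Apol9a 26, Ube2b, a ubiquitin-conjugating enzyme gene, 30 in a SINE, C77080 28 and Mir879 29. Over all 191 missing peaks the median distance to the nearest interval was 2229 bp (quartiles 764 and 4522). Of these 12 lay within 200 bp of an interval, 48 between 200 and 1000 bp, 103 between 1000 and 10000 bp and 28 farther.

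Open STAT3 peaks overlapped SOX4 peaks of the same population less often than STAT3 peaks outside ATAC intervals did. A SOX4 peak overlapped 9 of the 694 open peaks (1.30%, 0.595 to 2.45) and 49 of the 191 that missed (25.7%, 19.6 to 32.5). GABPa, an ETS factor mapped in lin-CD34- cells, showed the opposite order, with 68 of the 694 open peaks (9.80%, 7.69 to 12.3) and 3 of the 191 that missed (1.57%, 0.325 to 4.52). Promoter peaks made up 401 of the 694 open peaks and 15 of the 191 that missed. Neither overlap was split by position, so the part of position was not tested. STAT3 and SOX4 were mapped in the same population, which has 1 control library; no source used here says which control the caller took, and its part in the shared sites was not tested.

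Seen from the open side, STAT3 sat on wide ATAC intervals. A STAT3 peak touched 700 of the 143365 intervals (0.488%). These had a median width of 724 bp (quartiles 520 and 919), against 131 bp (85 and 220) for intervals without STAT3. At promoters the medians were 848 bp with STAT3 and 302 bp without, and elsewhere 577 bp and 123 bp. The share of intervals touched was 0.0206% (10 of 48545) under 100 bp, 0.234% from 200 to under 400 bp, 3.94% from 600 to under 800 bp and 5.69% (132 of 2318; 4.79 to 6.72) at 1000 bp or more. The widest class was touched at similar shares outside promoters and at them: 12 of 223 (5.38%, 2.81 to 9.21) and 120 of 2095 (5.73%, 4.77 to 6.81) at 1000 bp or more.

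A wide interval offers more sequence to touch, so summits were also counted per length. STAT3 summits fell in intervals 643 times over 30.2 Mb, or 21.3 per Mb. There were 0.773 per Mb in intervals under 100 bp, 7.28 from 200 to under 400 bp, 54.8 from 600 to under 800 bp, 61.6 from 800 to under 1000 bp and 47.2 at 1000 bp or more. Promoter intervals held 41.8 summits per Mb and other intervals 12.3. Within width classes the order varied. Promoter intervals held 16.5 per Mb and other intervals 5.84 from 200 to under 400 bp, and 42.8 and 32.2 from 400 to under 600 bp. Promoter intervals held 50.2 and other intervals 60.8 from 600 to under 800 bp, 57.7 and 76.4 from 800 to under 1000 bp, and 46.8 and 50.6 at 1000 bp or more. The width of an ATAC interval also grows with read depth and signal, which the list does not give, and their part in this was not tested.

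**Figure D2:**
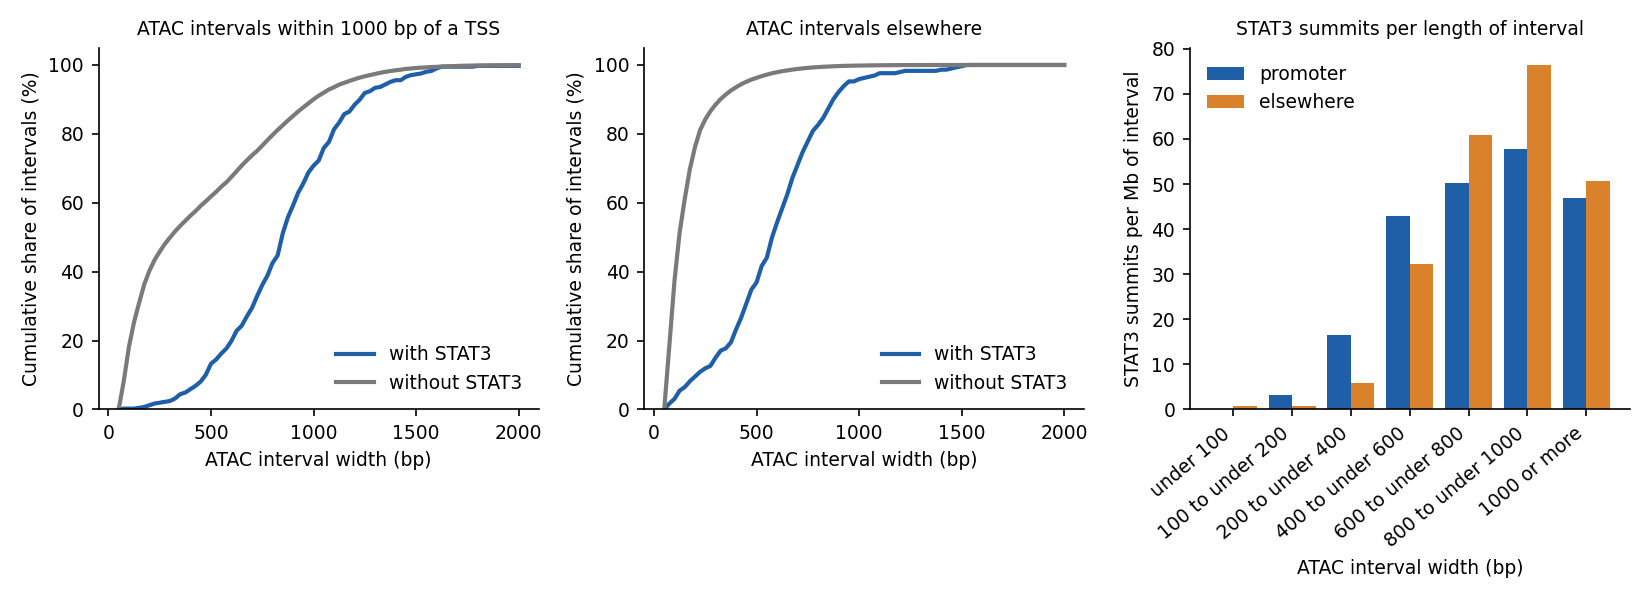
Cumulative share of ATAC intervals (y axis, percent) up to each width (x axis, bp), with a STAT3 peak and without, at promoters (left) and elsewhere (middle), and STAT3 summits per Mb of interval by width class (right). The curves with STAT3 lie to the right of those without at promoters and elsewhere (medians 848 and 302 bp, then 577 and 123 bp), and summits per Mb are highest, 57.7 and 76.4, in intervals of 800 to under 1000 bp.

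Among genes, 14107 of the 20374 named in either list had an open promoter (69.2%), and 379 of these had a STAT3 promoter peak (2.69%, 2.43 to 2.97). The open promoters with STAT3 were wider: the widest interval had a median of 844 bp (quartiles 666 and 1032), against 546 bp (179 and 852) in the 13728 without. Only 7 of 379 had no interval of 200 bp or more (1.85%), against 3791 of 13728 (27.6%). The number of intervals was alike, with 2 or more at 34.6% (29.8 to 39.6) of promoters with STAT3 and 33.0% (32.2 to 33.8) without. An interval annotated as CpG island was present at 14.2% (10.9 to 18.2) with STAT3 and 10.5% (10.0 to 11.1) without. By widest interval the share of open genes with STAT3 was 0.138% under 100 bp, 2.71% from 400 to under 600 bp and 5.26% (110 of 2091; 4.34 to 6.31) at 1000 bp or more.

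In 5 of the 379 genes the STAT3 promoter peak itself touched no interval, among them Rcc2, so 374 had both at the same place. Another 31 genes had a STAT3 promoter peak and no ATAC promoter interval under their own name. The peaks of 23 of these did overlap an interval, usually one assigned to the neighbour across a shared promoter. The peak of Hspe1, a mitochondrial co-chaperone gene with 30 tags, overlapped the interval of Hspd1, its partner chaperone. That of Mrpl30, of the mitochondrial ribosome, with 65 tags, overlapped the interval of Mitd1. That of Polh, a translesion DNA polymerase, with 44 tags, overlapped that of the exportin gene Xpo5, and that of Rad9b, with 60 tags, that of Vps29. The ATAC list gives a date in place of the gene name at 155 intervals, and the one under the Sept10 peak (20 tags) is among them. The genes in this paragraph were chosen after their values were seen.

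Motifs in the promoter windows differed between open genes with and without STAT3, while the intervals for the STAT motif overlapped. A window was found for 290 of the 379 genes with STAT3 and 10190 of the 13728 without. TTCNNNGAA was present in 7.59% (22 of 290; 4.82 to 11.3) of windows with STAT3, 6.87% (6.39 to 7.38) of open windows without and 8.45% of all 27025 windows. A STAT3 peak was centred in 195 of the 290 windows, and 9.23% of these held TTCNNNGAA (18 of 195; 5.56 to 14.2). Its stricter form TTCCNGGAA, which it includes, was found in 5 of 290 and 1.19% of those without. The ETS motif CCGGAAG was in 35.5% (30.0 to 41.3) with STAT3, 15.1% (14.4 to 15.8) without and 9.28% of all windows. The NRF1 motif GCGCATGC was in 17.2% (13.1 to 22.1), 4.37% (3.98 to 4.78) and 2.79% in the same order. The E-box CACGTG was in 18.6% (14.3 to 23.6), 9.47% (8.91 to 10.1) and 7.24%. At least 1 of the last 3 was in 57.2% (51.3 to 63.0) of windows with STAT3 and 26.1% (25.2 to 26.9) without. ETS factors, NRF1 and E-box factors are common regulators of housekeeping promoters, and GABPa is one of the ETS factors.

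**Figure D3:**
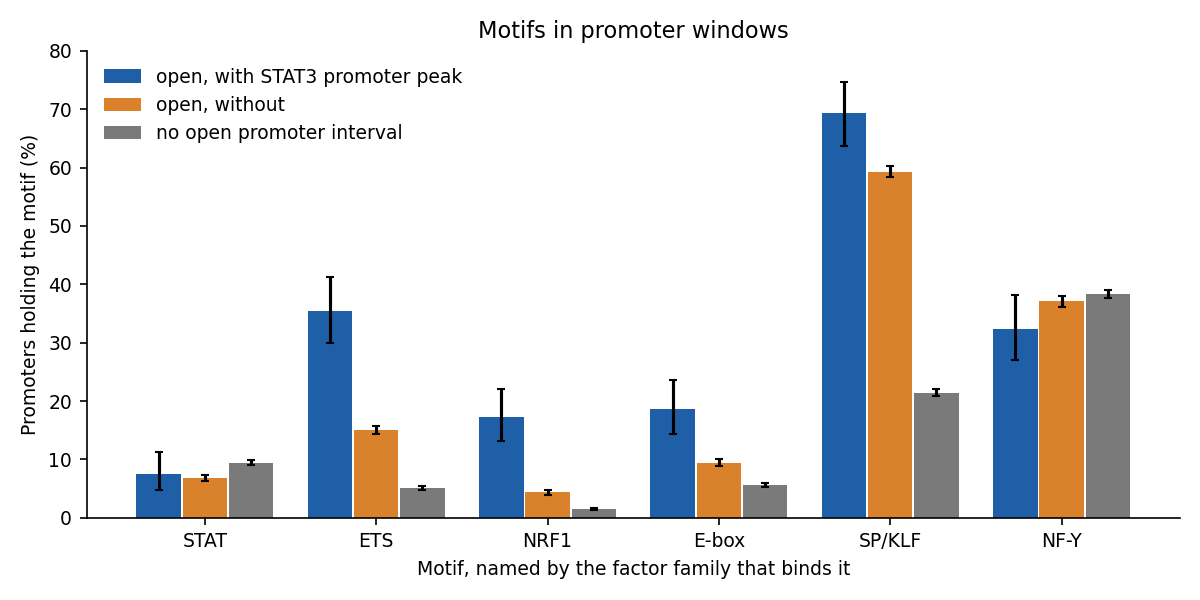
Share of promoter windows (y axis, percent) that hold a motif of each factor family on either strand, in open genes with a STAT3 promoter peak (290 windows), open genes without (10190) and genes without an open promoter interval (16519). Bars are shares and lines exact 95% intervals; the STAT motif is at 7.59%, 6.87% and 9.44% and the ETS motif at 35.5%, 15.1% and 5.18%.

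The promoters also differed in composition. The ratio of observed to expected CpG had a median of 0.879 with STAT3 and 0.717 without among open genes, and the GC content 61.3% and 60.0%. With windows of a CpG ratio of 0.75 or more alone, ETS was in 39.2% (32.6 to 46.0) with STAT3 and 21.8% (20.6 to 23.0) without, NRF1 in 20.3% and 6.79%, and the E-box in 18.9% and 11.9%. With a widest interval of 600 bp or more, ETS was in 36.0% and 22.0%, NRF1 in 17.8% and 6.0%, and the E-box in 19.4% and 10.9%. The SP/KLF motif GGGCGG was in 69.3% (63.7 to 74.6) with STAT3 and 59.3% (58.3 to 60.2) without, and 36.2% of all windows. That difference did not hold within wide or CpG-rich promoters: GGGCGG was in 71.9% with STAT3 and 70.1% without at a widest interval of 600 bp or more, and in 75.1% and 78.1% at a CpG ratio of 0.75 or more. The NF-Y motif CCAAT was in 32.4% (27.1 to 38.1) and 37.1% (36.1 to 38.0), and 37.8% of all. Motifs of CRE, AP-1, GATA and RUNX factors were in 4.14%, 5.17%, 6.21% and 5.86% of windows with STAT3 and in 3.07%, 5.80%, 6.81% and 4.09% without. At a CpG ratio of 0.75 or more the order turned for CRE, in 4.15% with STAT3 and 4.58% without, for AP-1, in 5.99% and 2.62%, and for GATA, in 6.45% and 3.50%, and RUNX was in 4.61% and 2.42%. A ZNF143 motif was in 0 of 290 windows with STAT3, which allows up to 1.26% by the exact interval, and in 0.638% without.

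The same motifs lay near the STAT3 summits. In 250 peaks the summit fell in a promoter window, and 249 of these peaks were open. Within 50 bases of the summit CCGGAAG was found in 52 of 250 (20.8%, 15.9 to 26.4), against 5.87% at the same positions of open promoters without STAT3. GCGCATGC was found in 11.2% (7.57 to 15.8) against 1.63%, and CACGTG in 10.0% (6.58 to 14.4) against 3.35%. TTCNNNGAA was found in 7 of 250 (2.80%, 1.13 to 5.68) against 2.05%. The open promoters without STAT3 used here were not matched for CpG ratio or interval width. CCGGAAG and TTCNNNGAA can share bases, as in the Nfxl1 promoter printed above. Of the 22 open promoters with STAT3 that hold TTCNNNGAA, 15 also hold at least 1 of the other 3. Peaks outside promoter windows were not searched, since no genome sequence was used here.

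Genes of the JAK-STAT pathway and textbook STAT3 targets nearly all had open promoters, and the share with STAT3 there was near the 2.69% of all open genes. Of 45 listed genes 44 had an open promoter (97.8%), Csf3r being the exception, against 69.2% of all genes named. The trait is not particular to this list: glycolysis and the TCA cycle had 97.7% open and ubiquitin-conjugating enzymes 97.2%, while ribosome biogenesis had 81.0%. Of the 44 genes 1 had a STAT3 promoter peak (2.27%, 0.0575 to 12.0). That is Ptpn11, a phosphatase acting in cytokine signalling: its peak of 34 tags at -394 bp was 26.1% covered by an interval of 901 bp. Stat3 itself was open over 972 bp without a STAT3 peak, as were the feedback inhibitors Socs3 (widest interval 901 bp) and Cish (654 bp). So were the target genes Pim1 (1168 bp), Myc (499 bp), Mcl1 (1401 bp), Junb (595 bp), Icam1 (334 bp) and Nfkbiz (890 bp), and the signalling genes Stat6 (697 bp) and Jak3 (734 bp). Absence from the list does not show an unbound promoter, since the list holds only peaks past the caller's threshold.

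Counting peaks at any distance, 7 of the 45 had a STAT3 peak as nearest gene, against 4.19% of the 20374 genes named. Those 20374 are less often open (69.2%) than this list (97.8%). Other gene lists varied, with 9 of 45 named genes in nuclear transport, 6 of 37 in chaperones and 6 of 27 in blood transcription factors. Splicing factors had 9 of 59, glycolysis and the TCA cycle 2 of 43 and DNA repair 2 of 57. Zfp36, which destabilises cytokine mRNAs, had 48 tags (score 174.75) at -4057 bp, in an interval of 558 bp. Il6ra, the interleukin-6 receptor, had 48 tags in intron 9 of 9, in an interval of 385 bp. Bcl3, a regulator of NF-κB and a known STAT3 target, had 30 tags in intron 2 of 8 at 5155 bp, wholly in an interval of 533 bp. The LIF receptor gene Lifr had 27 tags in intron 19 of 21, wholly in 510 bp, and the phosphatase gene Ptpn6 27 tags in intron 3 of 15. At Stat5b the peak of 35 tags in intron 1 of 18 was the one that missed ATAC, 3186 bp from the nearest interval. Of the 6 peaks away from promoters 5 were therefore open.

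The lists of nuclear transport, splicing, ribosome biogenesis and cytosolic and mitochondrial chaperones had STAT3 at a larger share of open promoters than the 2.69% of all open genes. The lists were not matched for width. Over all open genes the share was 3.98% at a widest interval of 600 to under 800 bp and 5.26% at 1000 bp or more. The intervals of ribosome biogenesis and chaperones begin at 4.95% and 3.76%, below 5.26%. Those of nuclear transport and splicing begin at 7.15% and 6.75%. In the list of nuclear pore and transport genes 7 of 41 open members had a STAT3 promoter peak (17.1%, 7.15 to 32.1). Nup107 had 45 tags, Nup50 65, Nup54 29 and Rcc2, a relative of the Ran exchange factor, 33, in the peak that missed its open interval. Among the open members without STAT3 were the importins Kpnb1, Tnpo1 and Ipo5 and the exportin Cse1l, with widest intervals of 986, 1617, 1021 and 1073 bp. Of splicing factors 8 of 53 had a peak (15.1%, 6.75 to 27.6), with 58 tags at Srsf1, 53 at Prpf19, 39 at Hnrnpl and 38 at Hnrnph1. Hnrnpf and U2af2 had none at widest intervals of 1357 and 1114 bp, nor had Srsf10 and Srsf11.

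Ribosome biogenesis genes had a peak in 5 of 34 open members (14.7%, 4.95 to 31.1). They include Nat10 and the nucleolar proteins Npm1, with 48 tags, Nop2, with 35, and Nolc1, with 35. Nop56, Nop58, Pes1 and the polymerase I factor gene Ubtf were open without one. Chaperones had 4 of 30 (13.3%, 3.76 to 30.7): Hspa4 with 81 tags, Hsp90aa1 with 54, Hsph1 with 38 and the chaperonin subunit gene Cct5 with 27. Hsp90ab1, Hspd1, Dnajc7 and Bag2 were open without a peak under their own name, and Hspd1 shares its open promoter with the bound Hspe1. The widest interval was not larger with STAT3 in every list. The median was 716 bp with STAT3 and 892 bp without among splicing factors, and 844 bp and 876 bp among nuclear transport genes.

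**Figure D4:**
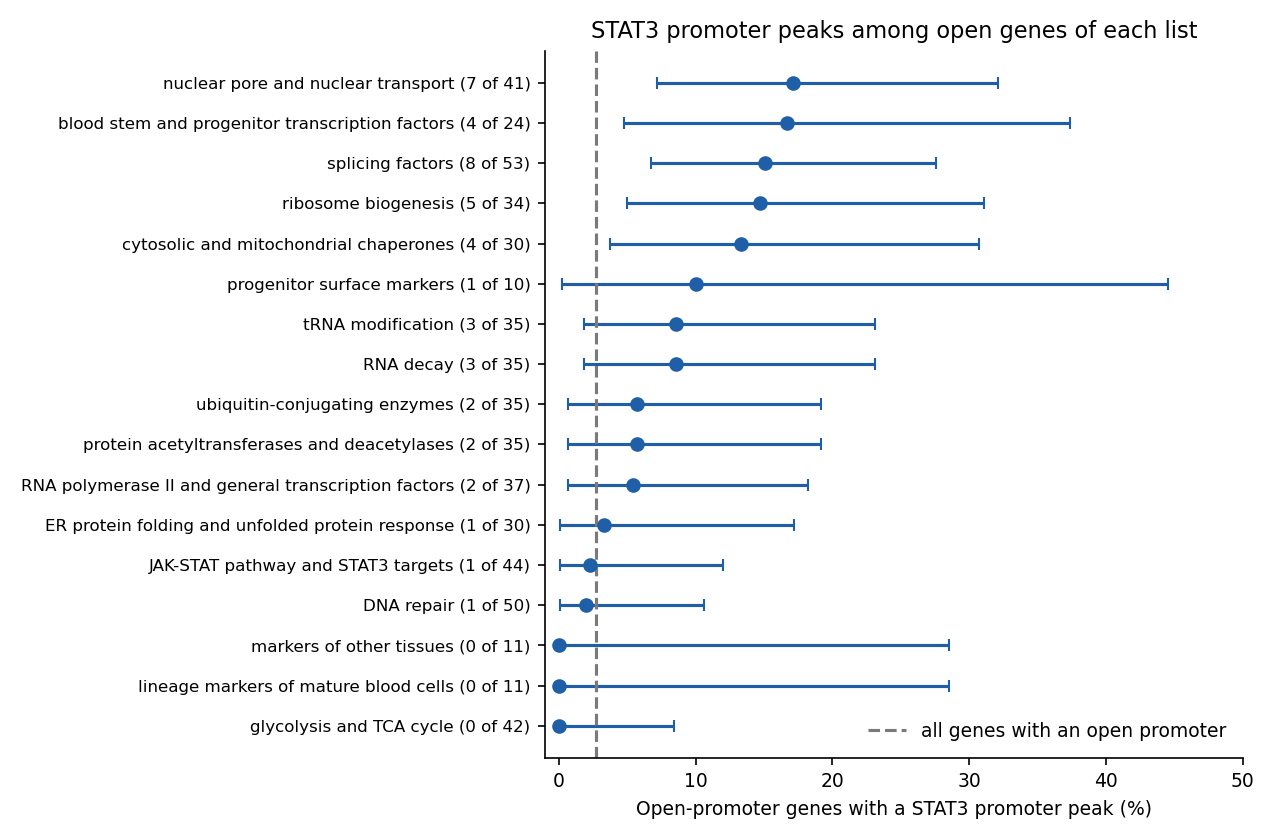
Share of open-promoter genes of each list that have a STAT3 promoter peak (x axis, percent; counts beside each name), with exact 95% intervals and a dashed line at the 2.69% of all open genes. The intervals of 5 lists, from nuclear transport (17.1%) to chaperones (13.3%), lie above the line. The line is not matched for interval width, and the lists were chosen with earlier results of these data known.

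Blood regulators also had STAT3 at some open promoters, in a list not matched for width. Of 24 open genes of blood stem and progenitor transcription factors 4 had a peak (16.7%, 4.74 to 37.4), against 2.69% of all open genes. As for ribosome biogenesis and chaperones, the interval begins below the 5.26% of open genes with a widest interval of 1000 bp or more. Runx1, a master regulator of blood stem cells, had 40 tags at 36 bp in an interval of 562 bp, and a second open peak of 35 tags 25077 bp downstream in intron 2 of 6. Cbfb, the partner subunit of Runx1, had 48 tags, the erythroid factor gene Nfe2 36 and the GATA cofactor gene Zfpm1 23. Of the 27 named genes of this list Gata1, Ikzf2 and Klf1 had no ATAC promoter interval. Lmo2, Gfi1, Ikzf1 and Ldb1 were open with 4 or 5 intervals each and no STAT3 promoter peak. Meis1 and Lyl1 had open STAT3 peaks in introns, with 33 and 30 tags. Among surface markers of progenitors 10 of 14 were open (71.4%), near the 69.2% of all genes named, Cd27, Thy1, Procr and Tek being the exceptions. Kit, the receptor of stem cell factor, was the 1 of these 10 with STAT3 (10.0%, 0.253 to 44.5). That range includes the 2.69% of all open genes. The Kit peak had 37 tags at 922 bp and lay 41.2% in an interval of 1232 bp. Cd34 was open over 703 bp, Ptprc over 1101 bp, Cd48 over 488 bp and Prom1 over 204 bp, without STAT3.

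The other lists lay near the share of all open genes or had wide intervals around it. RNA decay had 3 of 35 (Exosc4, Exosc5 and Lsm4), tRNA modification 3 of 35 (Trmt2a, Tyw1 and Elp5), and RNA polymerase II and its general factors 2 of 37 (Polr2h and Gtf2a1). The list of ubiquitin-conjugating enzymes had 2 of 35, protein acetyltransferases and deacetylases 2 of 35 (Naa25 and Naa50), endoplasmic reticulum folding 1 of 30 (Ddit3) and DNA repair 1 of 50 (Lig4). Glycolysis and the TCA cycle had 0 of 42 (up to 8.41%), although its promoters, such as those of Hk2, Tpi1, Gapdh and Pgk1, were open. Markers of mature blood lineages and of other tissues had 0 of 11 each (up to 28.5%). The median widest interval in these marker lists was 169 and 168 bp, so most open promoters in them were narrow. Itga2b (807 bp), Pf4 (950 bp) and Mpo (641 bp) were the wider ones named among lineage markers, and Cd5 had 301 bp. These 17 lists, chosen with earlier results of these data known, held 44 open genes with STAT3 in all.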

How the data were processed

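The STAT3 peak list and the ATAC interval list of lin-CD34+ EML cells were compared, and the SOX4 and GABPa lists served only for overlap with STAT3 peaks. Reads were processed on build mm10 with MACS2, Picard, SAMtools, HOMER, Bowtie2 and CASAVA 1.7, per the submitters' processing notes, which give no role for each. Not given in the sources used here are the peak calling settings, the control used and any shift of ATAC reads for the transposase. Tags are counts of reads in a peak as the authors deposited them. Per the file headers, the score is -10 times the log10 of a p-value. As deposited, fold enrichment is a ratio over the caller's background, and their false discovery rate is in percent, at most 4.9 in the STAT3 list. These values were used only to describe and rank peaks within a list. The ATAC list gives positions and annotation; 51930 of its 195295 entries repeat an interval, which was counted once, and no source used here says what a repeat stands for.

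Overlap was at least 1 bp, and promoter distance at most 1000 bp in the authors' distance column. Genes were matched by the authors' gene names. Motifs were searched on both strands of 32851 RefSeq promoter windows (GRCm38.p6), taking for each of 27025 symbols the window nearest its ATAC interval. No value was tested, since each group is 1 library. The named genes were the 10 strongest open STAT3 peaks at promoters and the 10 elsewhere, every promoter peak and the 10 strongest others outside ATAC, the 5 peaks over most intervals, up to 4 bound and 4 unbound open members per gene list, and Stat3, Socs3, Cish, Bcl3, Pim1, Myc, Mcl1, Junb, Runx1, Kit and Cd34; any other name was picked with its values known. The members and lists were chosen with earlier results of these data known. Scripts ran in Python 3.11.15 (pandas 2.3.3, numpy 2.4.6; scipy 1.17.1 for intervals; figures in matplotlib 3.10.9), and the overlap and motif steps were tested on simulated data.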

Additional observations from a re-analysis of the deposited data

How the results depend on the processing

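Of 79 values recomputed under another setting, 55 stayed within the interval or range of the value first given. The share of STAT3 peaks that were open became 73.7% with at least 50% of the peak covered, 75.0% by peak centre, 91.9% at or above the median score and 83.3% without repeats. At promoters it became 93.3% with 50% covered and by peak centre, 98.8% at or above the median score, 98.7% within 500 bp of a TSS and 94.0% within 2000 bp. Elsewhere it became 56.3% with 50% covered, 84.2% at or above the median score and 67.6% without repeats. With STAT3 peaks at or above the median score 227 open genes (1.61%) had one, and 26 members of the gene lists. With the peak centre in the window, ETS was in 43.6% and NRF1 in 22.6% of open promoters with STAT3. In open promoters without STAT3, a widest interval of 600 bp or more gave ETS 22.0%, NRF1 6.0% and E-box 10.9%, and a CpG ratio of 0.75 or more gave STAT 5.43%, ETS 21.8%, NRF1 6.79% and E-box 11.9%. The last 2 settings and matching by Entrez identifier (380 genes) were chosen after seeing the data. No paired analysis was possible because each group is 1 library and no test was made; for the same reason no library could be left out. Unknown library depth limits what the absence of a peak can show.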
